A study of Mus musculus with 8 samples.

Results

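The 9 aquaporins Aqp1, Aqp2, Aqp3, Aqp4, Aqp5, Aqp7, Aqp8, Aqp9 and Aqp11 were examined in the uteri of 8 mice. They were chosen as genes whose symbol in the array's annotation is on this list, and they are 9 of 19505 genes with a symbol. Each was measured by 1 probe set, a group of probes read as 1 value, so no choice between probe sets was needed. Aqp3, Aqp7 and Aqp9 also pass glycerol and are described as a group.

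All animals were wild-type C57BL/6J females, made pseudopregnant by mating to vasectomised males and killed in the morning of day 4.5, with the day of the plug counted as 0.5. The exposed group, labelled ecig, comprised 4 mice kept for 3 hours per day in whole-body aerosol at 2 puffs per minute. The device was set to 245 °C, and the liquid held propylene glycol and vegetable glycerin at 55 to 45 with 24 mg/mL nicotine and no flavouring. Exposure ran on 5 days per week for 4 weeks before mating and then daily. The sham group comprised 4 mice in room air, so effects of nicotine, propylene glycol, glycerin and aerosol as such cannot be told apart. The uterus of a pseudopregnant mouse is under the hormones of early pregnancy but holds no embryo. Total RNA of the uterus of each mouse was hybridised to its own array. The question was whether inhaled aerosol changes uterine gene expression around the time of implantation.

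Aquaporins are membrane channels that let water, and in some members glycerol or other small solutes, cross membranes along osmotic gradients. In the uterus they serve the movement of fluid into and out of the lumen. Oestrogen favours fluid in the lumen, and under progesterone the fluid is taken up so that the walls close around the time of implantation. The channels differ in site: Aqp1 is typical of endothelium and red cells, Aqp5 of the apical membrane of secretory glands, and Aqp7 of fat cells.

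In these uteri 4 members varied widely between mice, and in each of them exposed mouse 4 held an extreme value. It had the highest value of all 8 mice for Aqp1, Aqp5 and Aqp8 and the lowest for Aqp11. Aqp5 and Aqp8 were also high in exposed mouse 3. No aquaporin passed limma's test of exposed against sham with p-values adjusted over the whole array. Without exposed mouse 4 the mean differences of these 4 genes were smaller or of opposite sign. Without exposed mouse 1 they were larger, at 1.01 for Aqp5, 1.18 for Aqp8, 0.38 for Aqp1 and -0.58 for Aqp11. These 2 mice held opposite ends of the exposed group for each of the 4 genes, so the direction of both shifts was fixed in advance.

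Of the 9 members, 8 matched an entry of RefSeq's promoter table for assembly GRCm38.p6, all but Aqp4. The 250 bases before the start site are shown 5′ to 3′ for Aqp8, Aqp5 and Aqp11, the members with the largest SD within groups. Capitals mark matches to 6 short motifs searched on both strands. The half-site of progesterone and glucocorticoid receptors was searched as TGTTCT. The half-site that oestrogen receptors use was searched as AGGTCA, and the motif of forkhead factors such as Foxa2 as TGTTTAC. The core bound by NFAT factors, which the osmotic regulator NFAT5 uses, was searched as TGGAAA. The GC box of many housekeeping promoters was searched as GGGCGG, and the TATA box by its usual letters, TATAAA. No matches overlapped in these windows. The windows lie at chr15:99590778-99591027 on the plus strand for Aqp5, at chr7:123462044-123462293 on the plus strand for Aqp8 and at chr7:97738248-97738497 on the minus strand for Aqp11.
Aqp5: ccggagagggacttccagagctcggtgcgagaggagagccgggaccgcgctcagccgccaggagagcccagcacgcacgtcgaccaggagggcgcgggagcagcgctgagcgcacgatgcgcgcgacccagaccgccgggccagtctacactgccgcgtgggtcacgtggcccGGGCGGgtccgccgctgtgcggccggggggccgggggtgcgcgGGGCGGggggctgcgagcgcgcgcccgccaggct
Aqp8: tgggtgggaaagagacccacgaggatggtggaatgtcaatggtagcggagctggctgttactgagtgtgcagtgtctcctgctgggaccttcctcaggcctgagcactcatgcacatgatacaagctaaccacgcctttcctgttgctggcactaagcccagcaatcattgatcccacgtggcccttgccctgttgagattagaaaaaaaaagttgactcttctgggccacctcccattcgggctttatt
Aqp11: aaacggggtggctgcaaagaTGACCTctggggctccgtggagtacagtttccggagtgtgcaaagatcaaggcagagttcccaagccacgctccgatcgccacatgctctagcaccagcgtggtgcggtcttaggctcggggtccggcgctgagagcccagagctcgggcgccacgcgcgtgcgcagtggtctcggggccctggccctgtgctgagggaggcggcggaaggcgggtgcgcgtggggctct

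The Aqp5 window held 2 GC boxes, starting 77 and 34 bases before the start site, and 78.4% of its bases were G or C, against a median of 52.4% over 32851 promoter windows of the same length. A GC box occurred in 32.7% of those windows. The Aqp8 window, with 52.4% G or C, held none of the 6 motifs, so Aqp5 and Aqp8 shared no match. The Aqp11 window held 1 nuclear receptor half-site, read on the opposite strand and starting 230 bases before the start site, a motif found in 14.0% of windows. Among the other members, TGTTCT was found in windows of Aqp2, Aqp7 and Aqp9, and AGGTCA in windows of Aqp7. The NFAT core was found in Aqp7 and Aqp9, the GC box in Aqp1 and Aqp3 and the TATA box in Aqp3. TGTTCT occurred in 16.1% of windows, the NFAT core in 18.6%, the TATA box in 12.4% and the forkhead motif in 3.17%. Aqp7 and Aqp9 had more than 1 window each, so a share of windows is not a share of genes.

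In the annotation Aqp2, Aqp5 and Aqp6 are consecutive protein-coding genes on chromosome 15, and Aqp7 and Aqp3 are neighbours on chromosome 4. Aqp5 spanned 2.04 log2 units over the 8 mice, while its neighbours Aqp2 and Aqp6 each spanned 0.55. The neighbours Aqp3 and Aqp7 were closer to each other, spanning 0.76 and 0.60.

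Values are log2 expression as deposited, in which 1 unit is a doubling. Levels of different probe sets are not comparable, so each gene is compared only between mice. In place of a background level, genes on the Y chromosome, which female mice lack, give an idea of what a probe set reads without its transcript. Of these, 6 read 3.00 to 4.20, but Sry read 6.32 to 7.01, so a value in that range does not by itself show that a gene was expressed. The mean of 8 uterine genes, among them Esr1, Pgr and Hoxa10, was 9.06 to 9.34 in every mouse. With no other tissue measured beside it, this mean does not test the tissue label. Exposed mouse 4 differed most from the rest as a whole array, with a mean correlation of 0.977 with the other arrays against 0.982 to 0.987 for the others. It lay over 1 log2 unit from the sham mean at 2.05% of probe sets.

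Aqp8 conducts water and also ammonia and hydrogen peroxide. Its probe set (TC0700001774.mm.2) read 6.57, 6.92, 6.70 and 6.84 in sham mice 1 to 4. In exposed mice 1 to 4 it read 6.62, 6.94, 7.68 and 9.20. The sham mice and exposed mice 1 and 2 thus lay between 6.57 and 6.94, while exposed mouse 3 stood 1.90-fold and exposed mouse 4 stood 5.44-fold above the sham mean. Exposed mouse 1 lay inside the sham range, so the groups overlapped. The sham values lie in the range that Sry read, so they are not shown to be above background, and folds over them are folds of the readings only. The means were 6.76 ± 0.15 (SD, n = 4) in sham and 7.61 ± 1.15 in exposed mice, a log2 difference of 0.85 ± 0.45 (SE), or 1.81-fold with a 95% interval of 0.896 to 3.64. Limma gave an adjusted p of 0.838, and the exact two-sided permutation p for this gene alone was 0.171.

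Aqp5, the channel through which secretory glands release water, showed the same order among the exposed mice. The probe set (TC1500001018.mm.2) read 7.51, 7.70, 7.17 and 7.85 in sham mice 1 to 4 and 7.22, 7.91, 8.60 and 9.21 in exposed mice 1 to 4. Exposed mouse 3 stood 2.06-fold and exposed mouse 4 stood 3.14-fold above the sham mean, and exposed mouse 2 was just above the highest sham mouse. Exposed mouse 1 again lay among the sham mice. The means were 7.56 ± 0.29 and 8.23 ± 0.86 (SD, n = 4 each), a log2 difference of 0.67 ± 0.36 (SE), or 1.60-fold with a 95% interval of 0.917 to 2.78 (limma adjusted p = 0.838, exact permutation p = 0.200).

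Deviations of Aqp5 and Aqp8 from their group means ran together over the 8 mice, with Pearson r = 0.91 and Spearman rho = 0.83. Without exposed mouse 4 the r was 0.90 and the rho 0.86 over 7 mice. Of these, exposed mouse 3 was highest for both genes, at 7.68 for Aqp8 and 8.60 for Aqp5. In the others Aqp8 lay between 6.57 and 6.94, within the range of Sry. How far the likeness rests on exposed mouse 3 was not tested. Aqp1 and Aqp8 had r = 0.96 and rho = 0.88, with r = 0.73 without exposed mouse 4, and Aqp1 and Aqp2 had r = 0.90, with r = 0.33 without it. The 8 points share a common scaling of the arrays, and these values are descriptions.

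Aqp1, the water channel of capillary endothelium and red cells, was nearly constant in 7 of the 8 mice. It read 9.57, 9.75, 9.61 and 9.61 in sham mice 1 to 4, and 9.47, 9.69, 9.69 and 10.68 in exposed mice 1 to 4. Exposed mouse 4 alone lay outside the narrow band of the others on the high side, 2.06-fold above the sham mean. The means were 9.64 ± 0.08 and 9.88 ± 0.54 (SD, n = 4 each), a log2 difference of 0.24 ± 0.22 (SE, limma adjusted p = 0.858, exact permutation p = 0.629).

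Aqp11, an intracellular member of the endoplasmic reticulum whose loss gives cystic kidneys in mice, varied within both groups. Its values were 9.10, 8.78, 10.24 and 8.67 in sham mice 1 to 4, and 9.83, 8.72, 9.28 and 7.86 in exposed mice 1 to 4. Sham mouse 3 was the highest and exposed mouse 4 the lowest, 2.52-fold below the sham mean. The groups overlapped, with means of 9.20 ± 0.72 and 8.92 ± 0.84 (SD, n = 4 each) and a log2 difference of -0.27 ± 0.43 (SE, limma adjusted p = 0.916, exact permutation p = 0.657). Deviations of Aqp11 and Aqp5 ran opposite to each other, with r = -0.79 and rho = -0.71 over 8 mice and r = -0.61 without exposed mouse 4. For Aqp11 and Aqp8 the r was -0.67, and -0.27 without that mouse.

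**Figure D1:**
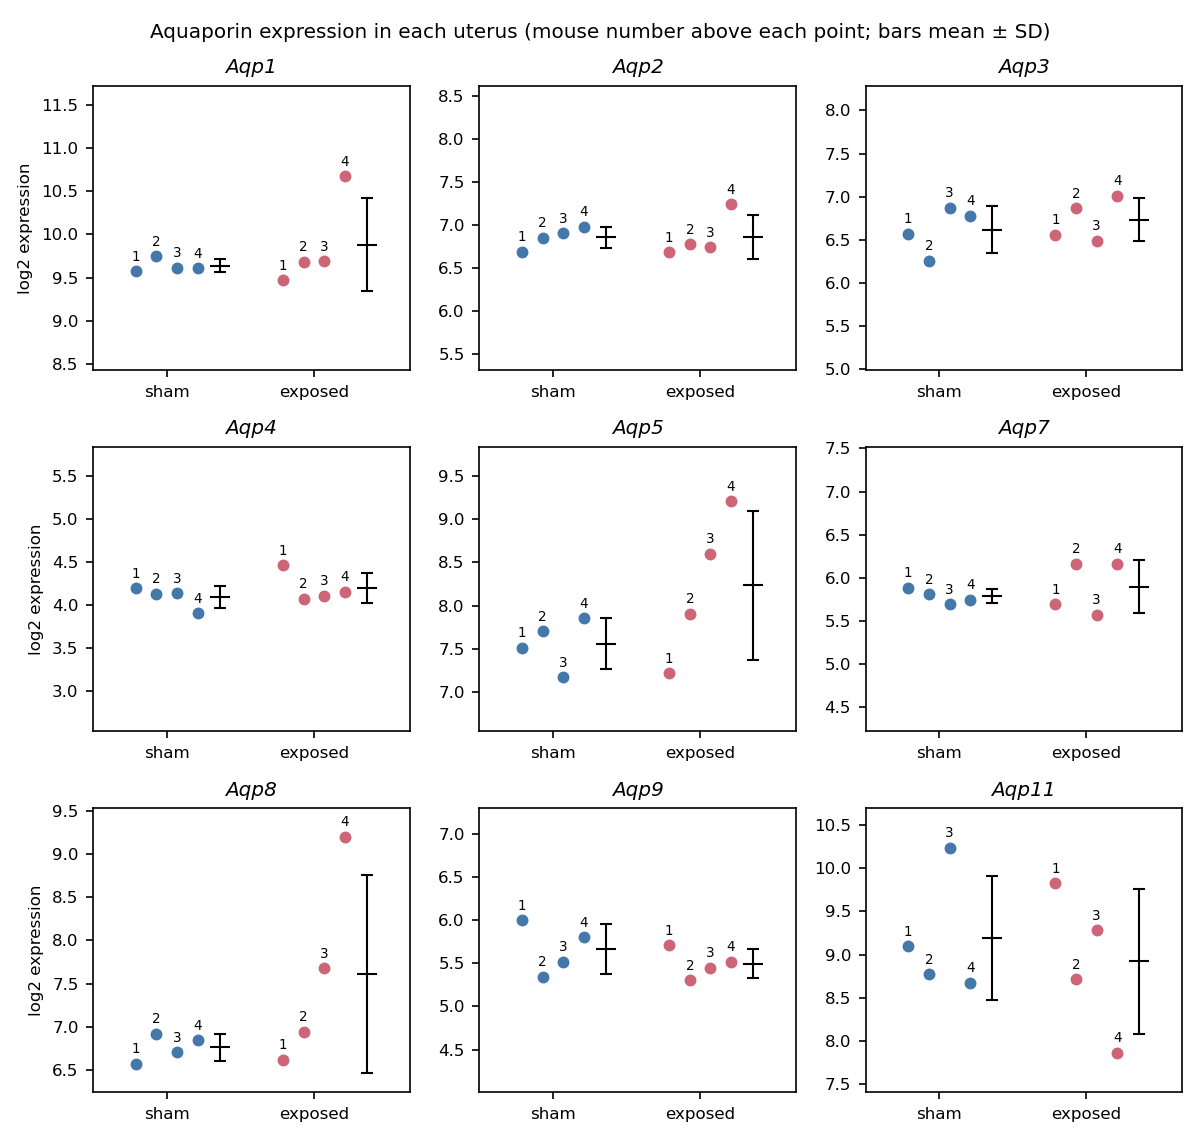
Log2 expression of the 9 aquaporins in the uterus of each mouse, with the mouse number above its point and a bar for the group mean ± SD over 4 mice. Every panel spans the same number of log2 units. Exposed mouse 4 is the highest point for Aqp1 (10.68), Aqp5 (9.21) and Aqp8 (9.20) and the lowest for Aqp11 (7.86).

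None of the glycerol-permeable members passed limma's adjusted test. Aqp7 and Aqp9 read below Sry in every mouse and Aqp3 mostly within its range, so they are not shown to be above background. Aqp3, which sits in the basolateral membrane of many epithelia, read 6.57, 6.26, 6.87 and 6.78 in sham mice 1 to 4 and 6.56, 6.87, 6.49 and 7.01 in exposed mice 1 to 4. Its difference was 0.11 ± 0.16 (SE), with a 95% interval of -0.24 to 0.47. Aqp7, through which fat cells release glycerol, read 5.89, 5.81, 5.70 and 5.75 in sham mice. It read 5.70, 6.16, 5.57 and 6.16 in exposed mice 1 to 4, so that exposed mice 2 and 4 lay above every sham mouse and exposed mouse 3 below them. Its difference was 0.11 ± 0.14 (SE), with an interval of -0.21 to 0.43.

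Aqp9, a channel for glycerol and urea of liver cells and leukocytes, was the only one of the 3 with a lower mean in exposed mice. It read 6.00, 5.34, 5.52 and 5.81 in sham mice 1 to 4 and 5.71, 5.30, 5.45 and 5.52 in exposed mice 1 to 4. All but exposed mouse 2 lay within the sham range, and the difference was -0.17 ± 0.15 (SE), with an interval of -0.51 to 0.16. Limma's adjusted p was 0.902 for Aqp3, 0.894 for Aqp7 and 0.852 for Aqp9. Expressed as folds, the upper ends of the intervals were 1.38 for Aqp3, 1.35 for Aqp7 and 1.12 for Aqp9, and the lower end for Aqp9 was 0.704.

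Markers of the cells that carry these channels were set beside them. The adipocyte list, with 12 of 13 genes measured, had a mean of 5.86 to 6.19 in sham and 5.74 to 6.88 in exposed mice. It was highest in exposed mice 1 and 2, at 6.67 and 6.88. The list did not move as a whole. Of its 12 genes, 9 had a higher exposed mean, as had 50.5% of all probe sets, and 3 (Lipe, Lep and Pparg) a lower one. Lipe had its lowest value of the 8 mice in exposed mouse 1, at 7.17. Aqp7 was high in exposed mouse 2 but not in exposed mouse 1, and it was as high in exposed mouse 4, where the adipocyte mean was 5.86. For Aqp9, the neutrophil list (12 of 13 measured) spanned 5.83 to 6.51 in sham and 5.85 to 6.19 in exposed mice, and the macrophage and monocyte list (12 of 13) spanned 7.59 to 7.90 and 7.13 to 7.97. The part of these cells in the differences was not tested.

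Aqp2 and Aqp4 remain. Aqp2, the vasopressin-regulated channel of the kidney's collecting duct, read 6.69, 6.85, 6.90 and 6.98 in sham mice 1 to 4 and 6.68, 6.78, 6.74 and 7.24 in exposed mice 1 to 4. The group means were 6.86 in both, with a difference of 0.0048 ± 0.13 (SE, limma adjusted p = 0.997), although exposed mouse 4 was again the highest. Aqp4, the main water channel of astrocytes, was dim. It read 4.19, 4.13, 4.13 and 3.90 in sham mice 1 to 4 and 4.46, 4.07, 4.10 and 4.15 in exposed mice 1 to 4. These values lie close to those of the absent Y-linked genes, and the difference was 0.11 ± 0.11 (SE, limma adjusted p = 0.876).

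The family genes outside the list were Mip, the lens channel also called Aqp0, Aqp6 of kidney intercalated cells and Aqp12 of the exocrine pancreas. Their differences were 0.02 ± 0.16, -0.09 ± 0.12 and 0.0095 ± 0.096 (SE). Mip read 6.74 to 6.88 in sham mice and 6.52, 6.77, 6.60 and 7.34 in exposed mice 1 to 4. A lens gene thus also had its highest value in exposed mouse 4, as Sry did at 7.01 against 6.32 to 6.74 in the others.

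Over the 9 members, 0 reached an unadjusted p under 0.05 in limma, where 5.42% of all 22206 probe sets did, and 0 passed the adjusted test, where 0% of probe sets did. The groups overlapped for all 9 members, and they did not overlap at 2.73% of probe sets. Adjusted p ran from 0.838 to 0.997. The exposed mean was higher for 7 members and lower for 2, Aqp9 and Aqp11, with a median difference of 0.11 against 0.0014 over all probe sets. Of the 7, the sign changed for Aqp1 without exposed mouse 4 (-0.02), for Aqp3 without sham mouse 2 (-0.0081) and for Aqp2 without exposed mouse 4 (-0.12), without sham mouse 1 (-0.05) and with array weights (-0.02). In an organ taken whole, fewer cells of a type and less RNA per cell cannot be told apart.

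The size of these differences depended on single mice, and leaving out a group's extreme mouse shifts its mean in a direction fixed in advance. Without exposed mouse 4 the difference was 0.32 for Aqp8, 0.35 for Aqp5, -0.02 for Aqp1 and 0.08 for Aqp11, with limma adjusted p from 0.987 to 0.995. Without exposed mouse 1 it was 1.01 for Aqp5 (limma adjusted p = 0.291) and 1.18 for Aqp8 (limma adjusted p = 0.367). The adjusted p of the members ran from 0.291 to 0.999 over all alternatives. The difference without that mouse was 0.38 for Aqp1 and -0.58 for Aqp11. With that mouse left out 2 of 9 members, Aqp5 and Aqp8, reached an unadjusted p under 0.05, as 11.5% of all probe sets did. The same 2 of 9 members had groups without overlap, as 10.2% of probe sets did. Aqp11 changed sign also without sham mouse 3, to 0.07.

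**Figure D2:**
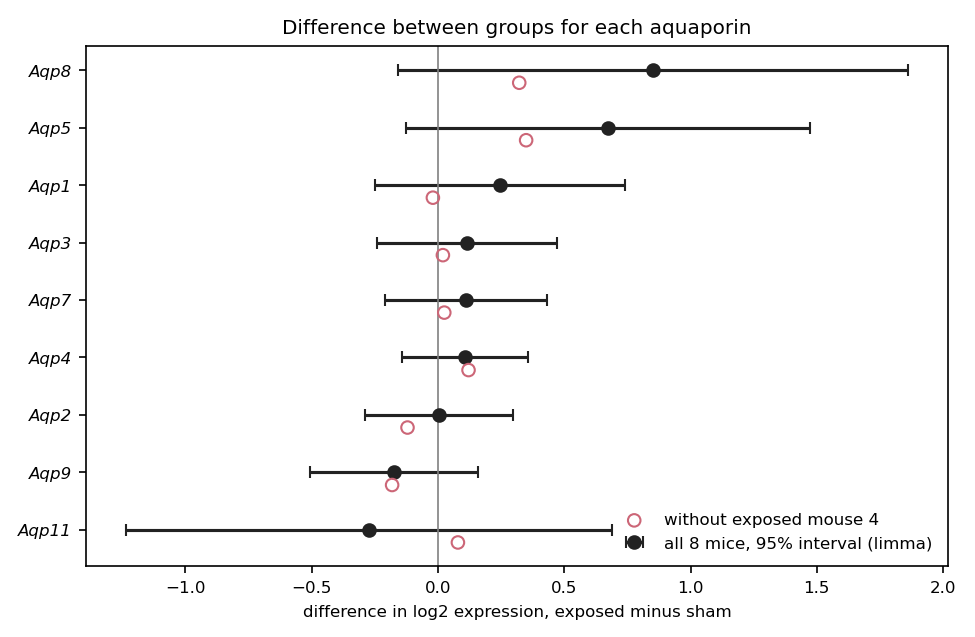
Difference in log2 expression, exposed minus sham, for each aquaporin from limma over 8 mice (black points, with 95% intervals) and the same difference without exposed mouse 4 (open circles). Every interval spans 0, and the values for Aqp8 and Aqp5 move from 0.85 and 0.67 to 0.32 and 0.35.

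The members differed widely in their spread between mice. The SD within groups, pooled over both groups, was 0.82 for Aqp8, 0.78 for Aqp11, 0.64 for Aqp5 and 0.39 for Aqp1, against a median of 0.17 over all probe sets and a 90th percentile of 0.31. These 4 members stood at the 99.4th, 99.3rd, 98.7th and 94.4th percentile of all probe sets. Aqp8 and Aqp1 were uniform among sham mice, with SDs of 0.15 and 0.08, and varied among exposed mice, with SDs of 1.15 and 0.54. Aqp11 varied in both groups, with SDs of 0.72 and 0.84. Without exposed mouse 4, Aqp1 stood at the 18.0th percentile, whereas Aqp8, Aqp5 and Aqp11 stayed at the 94.6th, 97.6th and 99.0th. The SD was larger in exposed mice for 7 of 9 members and for 65.8% of all probe sets.

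**Figure D3:**
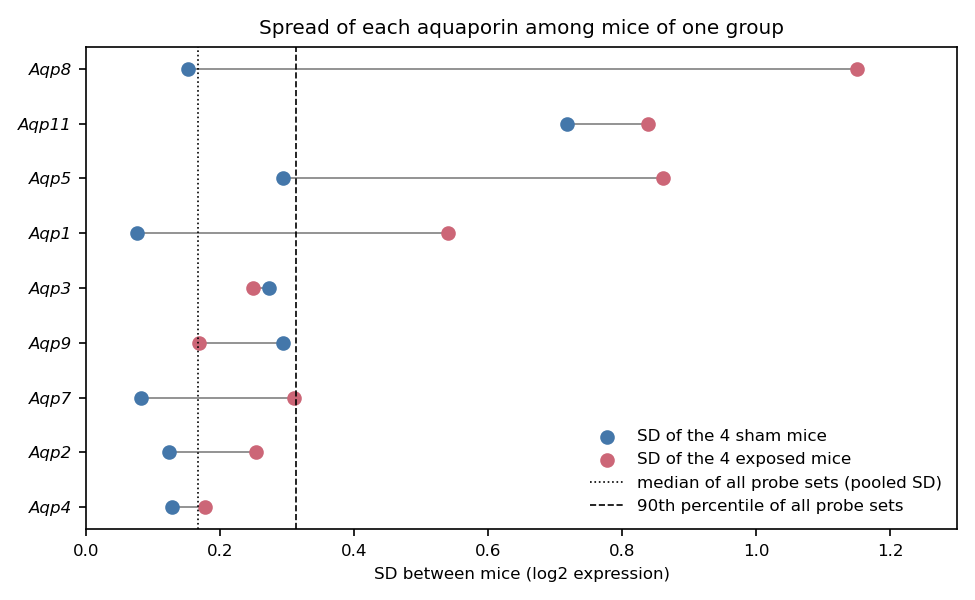
SD between mice of log2 expression for each aquaporin in the 4 sham mice (blue) and the 4 exposed mice (red). The dotted and dashed lines give the median (0.17) and the 90th percentile (0.31) of the pooled SD over all probe sets. Aqp8 spans from 0.15 in sham to 1.15 in exposed mice, and Aqp11 is above 0.7 in both groups.

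Exposed mouse 4 held the highest value for 5 of 9 members (Aqp1, Aqp2, Aqp3, Aqp5 and Aqp8), and it held the highest value at 21.6% of all probe sets. Its value for 4 members lay over 1 unit from the sham mean, as did 2.05% of all probe sets. These are the 4 widely varying members, and this mouse is part of that spread, so the count is not separate from it. Markers of other cell types also stood apart in that mouse. The gland list (11 of 11 measured) had a mean of 7.08 to 7.78 in sham mice and 7.16, 7.13, 7.92 and 8.71 in exposed mice 1 to 4. The list did not move as a whole, since 4 of its genes had their highest value of the 8 mice in exposed mouse 4 and 2 their lowest. Of all probe sets, 20.2% had their lowest value in that mouse.

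The gland genes named here were chosen after their values were seen. Prss28 and Prss29, serine proteases that uterine glands secrete around implantation, read 12.64 and 12.04 in exposed mouse 4 and 6.80 and 8.04 in exposed mouse 3. In the other 6 mice Prss28 was at most 5.67 and Prss29 at most 7.205. Spink1, a secreted protease inhibitor, read 12.22 and 9.66 in exposed mice 4 and 3 and 6.04 to 8.98 in the others. The order of exposed mice 4 and 3 above the rest is the order found for Aqp5 and Aqp8. Foxa2, the transcription factor that defines uterine glands, was instead lowest in exposed mouse 4 at 7.16, against 7.43 to 7.96 in the others. Cxcl15, a chemokine of uterine glands, was lowest there too, at 6.51 against 8.77 to 9.37. The mean of the epithelial list (14 of 15 measured), which includes keratins and claudins, was 8.14 in exposed mouse 4 and 8.52 to 8.84 in the other 7.

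**Figure D4:**
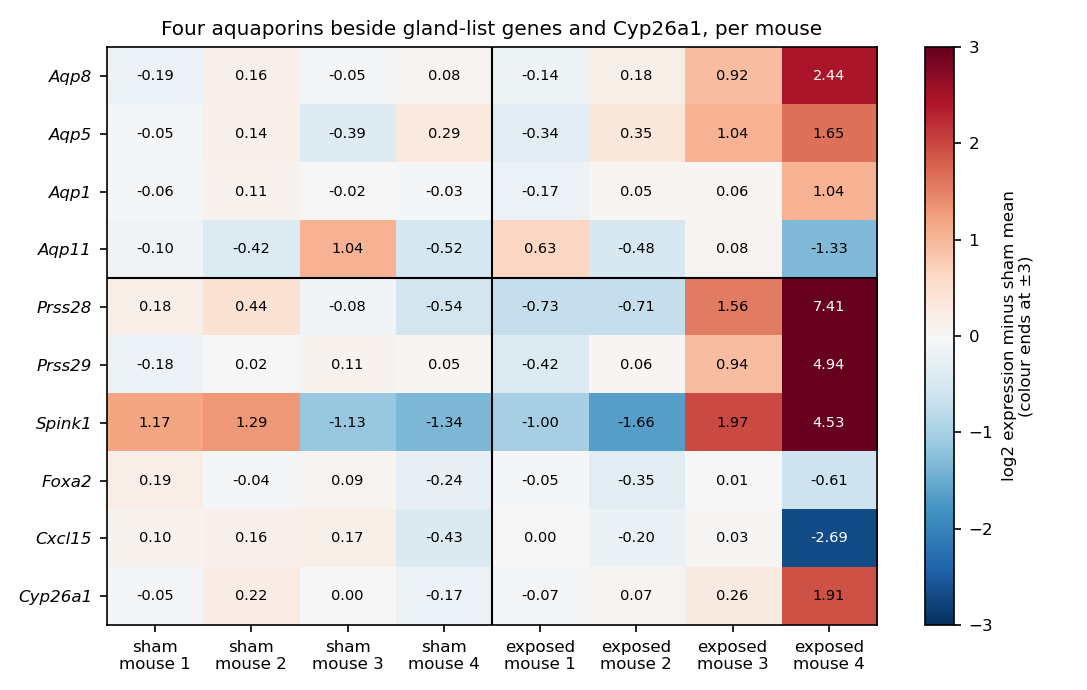
Log2 expression minus the sham mean in each of the 8 mice for Aqp8, Aqp5, Aqp1 and Aqp11 (above the line) and for gland-list genes and Cyp26a1 (below it). The number in each cell is the difference, and the colour scale ends at 3 units in either direction. Exposed mouse 4 reaches 2.44 for Aqp8, 7.41 for Prss28 and -0.61 for Foxa2.

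For the water channel of vessels and red cells, the endothelial list (11 of 12 measured) had a mean of 8.18 to 8.72 in sham and 8.44 to 8.79 in exposed mice. Its highest values were 8.79 in exposed mouse 3 and 8.76 in exposed mouse 4. In exposed mouse 4, 3 of its 11 genes (Pecam1, Vwf and Robo4) were highest, as were 21.6% of all probe sets. Plvap and Kdr lay below the sham mean there, at -0.40 and -0.03 log2 units from it. The erythrocyte list, with 6 of 13 genes measured and no globin among them, was 5.81 to 5.87 in sham mice, 5.85 to 5.92 in exposed mice 1 to 3 and 6.09 in exposed mouse 4. Of its 6 genes, 3 had their highest value in exposed mouse 4 (Slc4a1, Epb42 and Rhag) and 1 its lowest (Kel). Of all probe sets, 21.6% were highest and 20.2% lowest in that mouse. Rhag, at 3.79 to 4.33, read close to the absent Y-linked genes. Epb42, Kel and Ermap read below Sry in every mouse, and Alas2, at 6.43 to 6.98, read within its range. Only Slc4a1, at 8.21 to 8.79, read above Sry's range, so the other genes of the list are not shown to be above background. Natural killer cell markers (6 of 8 measured) were highest in exposed mouse 4 as well, at 6.80 against 5.65 to 6.31. The part of these cells, of glands and of the array as a whole in the aquaporin values was not tested.

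Genes most like each of the 4 widely varying members were sought among 17041 named genes by the correlation of deviations from the group means over 8 mice. The 8 points share a common scaling, the highest values were picked from many, and they are descriptions. For Aqp1 they were Cyp26a1, which breaks down retinoic acid (r = 0.99, rho = 0.98), Fgg, the fibrinogen gamma chain, and Ushbp1. Cyp26a1 read 7.81 in exposed mouse 4 and 5.74 to 6.17 in the other 7, and without that mouse its r with Aqp1 was 0.82. Those 7 values lie below Sry and are not shown to be above background. For Aqp5 they were Megf10 (r = 0.97), Zp3 and Cd55. Fgg, Megf10 and Zp3 read below Sry in every mouse. They are not shown to be above background, so their correlations are not read further. Cd55, a complement inhibitor of the cell surface, read 8.38 to 9.16 in sham and 8.57, 9.40, 9.74 and 10.44 in exposed mice 1 to 4.

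For Aqp8 the nearest genes were Tlr2, a receptor for bacterial lipoproteins (r = 0.99, rho = 0.90), Chp1 and Dscam. Dscam, at 4.05 to 6.36, read below Sry in every mouse, so it is not shown to be above background. Tlr2 read 7.77 to 7.96 in sham mice and 8.31 and 9.06 in exposed mice 3 and 4, and its r with Aqp8 was 0.96 without exposed mouse 4. For Aqp11 they were Kctd13 (r = 0.98), Kcnk6, a potassium channel, and Acaca, acetyl-CoA carboxylase. Kctd13 followed Aqp11 in being highest in sham mouse 3 (8.37) and lowest in exposed mouse 4 (7.23), with r = 0.98 without exposed mouse 4.

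Genes that work with aquaporins were grouped by role. Of 13 measured genes of glycerol handling (14 listed), 1 had a higher and 1 a lower mean at an unadjusted limma p under 0.05, where 5.42% of all probe sets reached it, and 0 passed adjustment. The median difference was 0.09. Pnpla2, the lipase that starts the release of glycerol from stored fat, was 8.80 ± 0.14 in sham and 9.17 ± 0.26 in exposed mice (limma adjusted p = 0.838, exact permutation p = 0.0857). Dgat2, which makes triglyceride, was 9.61 ± 0.15 and 9.04 ± 0.47 (limma adjusted p = 0.838, exact permutation p = 0.0571), with exposed mouse 4 lowest at 8.39. Gpd1, which links glycerol to glycolysis, differed by 0.11 ± 0.13 (SE). Gk, the glycerol kinase, is not analysed here.

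Ion transporters set the gradients that water follows. Of 21 measured genes of epithelial ion and fluid transport (23 listed), 2 were higher and 2 lower at an unadjusted limma p under 0.05 and 0 passed adjustment, where 5.42% of all probe sets reached that unadjusted p in either direction. The median difference was 0.07. The smallest p-values belonged to Slc26a7, a chloride and bicarbonate exchanger (difference 1.22 ± 0.24, SE), and Slc9a3r1, a scaffold that anchors transporters at the apical membrane (-0.37 ± 0.09). Both had an adjusted p of 0.838. The groups did not overlap for 3 of the 21 genes, these 2 and Slc26a6 (-0.24 ± 0.09), nor at 2.73% of all probe sets. Scnn1a, a subunit of the sodium channel that draws fluid from the uterine lumen, differed by -0.16 ± 0.27. Cftr, the chloride channel that drives fluid into it, differed by -0.10 ± 0.58. Cftr read 6.89 in sham mouse 4 and 6.51 in exposed mouse 2 and 4.24 to 4.93 in the other 6, lowest in exposed mouse 4. The 6 low values lie just above the absent Y-linked genes, which read up to 4.20 besides Sry, and below Sry itself. They are not shown to be above background, so their order among mice is not read further. Slc12a2, the sodium, potassium and chloride cotransporter of secretory cells, differed by 0.08 ± 0.11.

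In the list of aquaporin trafficking and vasopressin signalling, 0 of 13 measured genes (14 listed) reached an unadjusted limma p under 0.05, with a median difference of -0.01. The smallest p-values were those of Ezr, which links membrane proteins to actin (-0.20 ± 0.10, SE), and Akap7, an anchor of protein kinase A (0.44 ± 0.23). Avpr2, the vasopressin receptor that controls Aqp2 in kidney, was dim in both groups (4.97 and 5.02). For the complex that anchors Aqp4, 0 of 7 measured genes (8 listed) reached it, with a median difference of 0.04. Kcnj10, the potassium channel found beside Aqp4 in glia, differed by 0.03 ± 0.11, and Sntb1 and Dtna by 0.32 ± 0.15 and 0.21 ± 0.10. In the osmotic response list, 0 of 10 measured genes (12 listed) reached it, with a median of -0.02, and Nfat5, its main transcription factor, differed by 0.17 ± 0.14, while Oxsr1, a kinase of cell volume, had the smallest p (-0.15 ± 0.10).

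Hormone-responsive lists were set beside the aquaporins because ovarian steroids govern uterine fluid. Of 17 measured progesterone-responsive genes (19 listed), 3 were lower and 0 higher at an unadjusted limma p under 0.05, where 5.42% of all probe sets reached it in either direction. The median difference was -0.23, and 0 passed adjustment. Those with the smallest p were Fkbp5 (-0.65 ± 0.25, SE) and Sgk1 (-0.85 ± 0.36), a kinase that activates the epithelial sodium channel. The list mean was 8.50 to 9.09 in sham and 9.05, 8.04, 8.75 and 8.31 in exposed mice 1 to 4, so it was lowest in exposed mice 2 and 4, whereas Aqp5 and Aqp8 were highest in exposed mice 3 and 4. Of 15 measured oestrogen-responsive genes (17 listed), 0 reached an unadjusted p under 0.05, with a median of 0.07. Greb1 (0.36 ± 0.35) and Muc1 (-0.35 ± 0.29) were among them, and the list mean was highest in sham mouse 4, at 8.26.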

How the data were processed

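RNA of 8 uteri was measured on 1 array each. The authors deposited log2 expression values of 22206 probe sets, with the log2 scale read from their range of 2.75 to 13.6. The software was Partek, per the submitters' processing notes. Its version, the background correction, the summary of probes and the genome build were not given in these sources. Sorted values of the 8 columns differ by at most 0.0198, so the arrays share 1 distribution, which removes any shift common to all genes, and they were used as deposited. Signal over background could not be assessed, and the number of arrays limits precision.

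Symbols came from the platform annotation (19572 probe sets with 1 symbol, 0 with several, 2634 with none), keeping per gene the probe set with the highest mean. Older list symbols were matched through RefSeq, and list genes without a match were not analysed here. Exposed minus sham was fitted on all probe sets with limma 3.58.1 in R 4.3.3 (lmFit, eBayes, no covariates), with Benjamini-Hochberg adjustment and a threshold of 0.05. The fit was checked on simulated arrays. Exact permutation tests used all 70 assignments of mice, with a smallest possible two-sided p of 0.0286. Intervals are 95% from limma.

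Members and gene lists were chosen with earlier results of these data known. Named were all members, the remaining family genes, 10 genes fixed by name, the 2 genes of smallest p in each pathway list, and, for members with a pooled SD above the 90th percentile, the 3 genes of highest r. Alternatives were median centring or quantile normalization, testing only probe sets with mean expression above the 25th or the 50th percentile, other eBayes settings, a block for the replicate number, array weights, the mean of a gene's probe sets, other measures of spread and leaving out each mouse. The correlations without exposed mouse 4 and the motifs were chosen after the data were seen.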

Additional observations from a re-analysis of the deposited data

Results flagged for a closer look

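In 5 of 96 groups of 4 mice, taken over the members, the other family genes, the genes fixed by name and the list means, a single mouse exceeded Dixon's 95% limit for its gap to the nearest mouse. By chance about 1 in 20 groups would do so. Among the members this was exposed mouse 4 for Aqp2, at 7.24 against 6.68 to 6.78 in the other exposed mice. For Aqp1 and Aqp8, where exposed mouse 4 was also highest, the distance was below the limit. Cftr, the chloride channel, read 6.89 in sham mouse 4 against 4.44 to 4.75 in the other sham mice. Slc12a2, the cotransporter of secretory cells, read 10.17 in sham mouse 3 against 9.74 to 9.80. The mean of the aquaporin trafficking and vasopressin signalling list was 8.49 in sham mouse 3 against 8.436 to 8.439. The mean of the smooth muscle list was 9.9995 in sham mouse 4 against 10.28 to 10.32.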

How the results depend on the processing

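No aquaporin passed an adjusted p of 0.05 under any alternative run. At an unadjusted p under 0.05 the count of members was 0 to 2 when each mouse was left out in turn, and 2 with the replicate number as a block, namely Aqp5 and Aqp8. Under that replicate block both had a limma adjusted p of 0.808. The labels give the numbers as biological replicates and name no pairing. Deviations of same-numbered mice had correlations of 0.08, -0.24, 0.08 and 0.08 over all probe sets. Differently numbered mice were not compared, and such values cannot exclude a shared factor that touches few genes. The members without overlap numbered 0 to 2 with a mouse left out. Over all probe sets, those at an unadjusted p under 0.05 numbered 726 (without sham mouse 2) to 2545 (without exposed mouse 1) and those without overlap 1016 to 2276 with a mouse left out, against 1203 and 607 with all mice, where fewer mice make separation easier. Past an adjusted p were 0 to 1. Above the 50th percentile of expression, where fewer probe sets were tested, the counts were 796 and 379. Signs changed for Aqp1 (-0.0202 to 0.38 with a mouse left out), Aqp2 (-0.12 to 0.0634, and -0.0208 with array weights), Aqp3 (-0.0081 to 0.20) and Aqp11 (-0.58 to 0.0789). For Aqp4, Aqp5, Aqp7, Aqp8 and Aqp9 the sign held in all 16 to 18 alternatives that kept them. The count of 4 members with a wide spread was within 1.5 times under each alternative, though by the median absolute deviation Aqp1 stood at the 33.2nd percentile. Signal over background was not available. Values of Aqp4, Aqp7, Aqp9, Avpr2, Cftr, Alas2, Epb42, Ermap, Kel, Rhag, Fgg, Megf10, Zp3 and Dscam lie at or below Sry's highest reading. So do those of Aqp2 and Aqp3 in most mice, of Aqp8 in sham mice and of Cyp26a1 outside exposed mouse 4. All these values are not shown to be above background.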
